A study of Mus musculus with 15 samples.

Results

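Small leucine-rich proteoglycans are a family of secreted matrix proteins, and 8 of their genes were followed here across 3 groups of mouse heart cells. The members were fibromodulin (Fmod), biglycan (Bgn), Prelp, podocan (Podn), decorin (Dcn), lumican (Lum), keratocan (Kera) and epiphycan (Epyc). They were named by symbol in the platform annotation, not by any measured value, and 8 of the 8 had a value, among 13513 named genes and 22206 probe sets in all. EpiSC were stromal cells taken from the epicardial surface of infarcted hearts, aCF were activated fibroblasts of infarcted hearts, and CF were fibroblasts of unstressed control hearts. Each group had 5 Affymetrix arrays of separate biological replicates, 15 arrays in all. All mice were wild-type C57BL/6 aged 8 to 12 weeks, and EpiSC and aCF were isolated 5 days after myocardial infarction. CF came from hearts without infarction, and no sham-operated group is among the samples. All hearts were digested with collagenase by perfusion. Shear forces released EpiSC from the heart surface, whereas CF and aCF came from dispersed ventricle with the atria removed, so the cell type and the way it was released cannot be told apart. CF hearts were not given the shear step, and no sort of the cells by surface marker is described in the labels.

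Each protein of the family has a core of leucine-rich repeats, usually carrying chondroitin, dermatan or keratan sulfate chains, that binds collagen and controls how fibrils assemble, thicken and become crosslinked. Several members also bind growth factors such as TGF-beta or act on cell-surface receptors. In the heart they are made largely by fibroblasts and are part of the scar that forms after infarction.

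Each value is a log2 expression level from which that probe set's median over the 15 arrays was subtracted, so a value of 0 is that median and not the absence of RNA. The centring removed each gene's absolute level, so levels of different genes cannot be set against each other, and whether a cell type's defining markers were present or absent could not be checked. The level of a member in CF, where Dcn, Bgn and Lum are abundant genes in most fibroblast data, is therefore not known here, nor is how close a signal lay to the scanner's limits. In RNA from many cells, fewer cells of a type and less RNA per cell cannot be told apart.

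Every gene name rests on a displacement between the identifiers and the values of the deposited table, which no label or header states. The value of an identifier was taken from the row 6900 rows further down, or 6903 rows for chromosomes 10 and 11. Among 8 collagen and other matrix genes of chromosomes 1 to 9 and X, none of them a member, the mean pairwise correlation of deviations from the group means was 0.354 when displaced and -0.012 in the deposited order. The highest value at 50 other displacements was 0.131. For chromosomes 10 and 11, on 3 genes only, the correlation with the list's profile was 0.560 with the extra 3 rows, 0.250 at the best of the other displacements tried and -0.124 without the extra rows. For 5 cell cycle genes there it was 0.327, against 0.293 at the best other displacement and 0.088 without the extra rows, so that list hardly separated the displacement used from another. Dcn, Lum, Kera and Epyc lie on chromosome 10 in consecutive rows of the table, so an error of 1 row there would exchange their names. Their names are less secure than those of Fmod and Prelp (chromosome 1), Podn (chromosome 4) and Bgn (chromosome X).

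Some arrays stood apart from others of their group. EpiSC5 was the highest EpiSC array for 7 of the 8 members, Fmod being the exception. It had the lowest mean of the 11 measured epicardial markers among EpiSC (1.225, with a group maximum of 1.85) and the highest mean of the 14 measured fibroblast markers (0.09, with a group minimum of -0.43). aCF4 was among the lowest pair of aCF arrays for 7 of the 8 members and aCF5 for 6, and the mean of 13 heart muscle markers was -0.60 in aCF4 and -0.42 in aCF5, with 0.095 to 0.34 in the other 3 aCF arrays. Whether these marker levels play a part in the members' values was not tested.

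**Figure D1:**
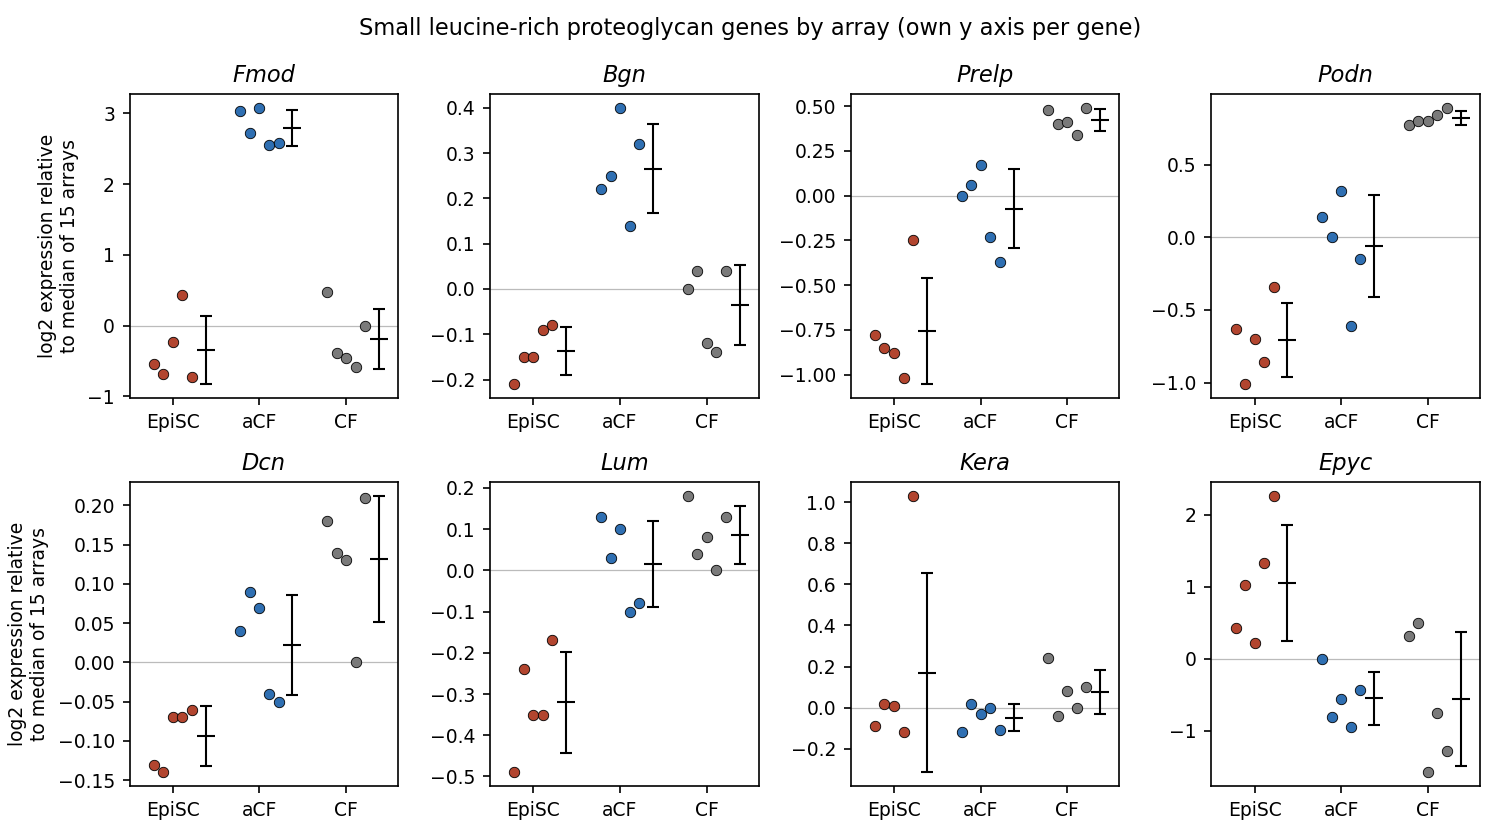
Log2 expression relative to the median of 15 arrays for each member, with EpiSC, aCF and CF from left to right, 1 point per array in replicate order and the mean ± SD (n = 5) beside the points; each gene has its own y axis. All 5 aCF points of Fmod lie above 2.5 and all EpiSC and CF points below 0.5, whereas Prelp and Podn are highest in CF.

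The promoter sequences of 4 members show the pairs that stood out by group: Fmod and Bgn had their highest group mean in aCF, and Prelp and Podn in CF. The windows run from 250 bases before to 50 bases after an annotated start in RefSeq on GRCm38.p6, and 6 of the 8 members had one. Dcn and Lum had none. Capitals mark matches, on either strand, to 4 short motifs: a TATA box (TATAAA), an AP-1 type site (TGANTCA), a GC box (GGGCGG) and a SMAD type element (CAGACA). The Fmod window lies at chr1:134037004-134037303 on the plus strand, the Bgn window at chrX:73483351-73483650 on the plus strand, the Prelp window at chr1:133921352-133921651 on the minus strand and the Podn window at chr4:108031905-108032204 on the minus strand.
Fmod: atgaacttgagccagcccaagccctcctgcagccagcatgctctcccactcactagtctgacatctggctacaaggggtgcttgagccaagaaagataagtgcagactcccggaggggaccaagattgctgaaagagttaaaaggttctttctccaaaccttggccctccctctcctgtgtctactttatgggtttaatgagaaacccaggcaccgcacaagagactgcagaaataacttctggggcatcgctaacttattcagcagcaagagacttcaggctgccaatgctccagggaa
Bgn: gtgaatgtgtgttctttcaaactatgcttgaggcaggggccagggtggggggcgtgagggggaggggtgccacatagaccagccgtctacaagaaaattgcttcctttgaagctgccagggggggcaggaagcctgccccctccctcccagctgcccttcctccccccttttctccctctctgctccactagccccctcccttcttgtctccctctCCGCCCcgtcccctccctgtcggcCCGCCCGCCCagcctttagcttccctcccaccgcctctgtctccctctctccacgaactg
Prelp: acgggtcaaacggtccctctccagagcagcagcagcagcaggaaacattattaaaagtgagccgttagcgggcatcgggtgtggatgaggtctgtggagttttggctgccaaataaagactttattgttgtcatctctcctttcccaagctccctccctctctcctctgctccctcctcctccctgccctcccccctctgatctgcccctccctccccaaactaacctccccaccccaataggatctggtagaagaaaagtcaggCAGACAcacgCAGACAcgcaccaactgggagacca
Podn: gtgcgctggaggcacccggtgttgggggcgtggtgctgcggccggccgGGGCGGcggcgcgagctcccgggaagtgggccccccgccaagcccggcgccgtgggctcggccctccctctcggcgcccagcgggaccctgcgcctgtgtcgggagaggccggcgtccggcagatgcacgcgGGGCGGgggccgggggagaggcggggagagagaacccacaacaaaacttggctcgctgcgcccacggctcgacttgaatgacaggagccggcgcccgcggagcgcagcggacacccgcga

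The Fmod window held no match to the 4 motifs and the Bgn window held 3 GC boxes, read on the minus strand. The Prelp window held 2 SMAD type elements just after the start and the Podn window shown 2 GC boxes before it. A second Podn window, at chr4:108030937-108031236 on the minus strand, held 1 SMAD type element and no GC box. Of 32851 such windows, 35.7% held a GC box, 21.0% a SMAD type element, 13.6% a TATA box and 7.81% an AP-1 type site, so matches of these kinds are common. A match is a description of the sequence only.

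Each pair of groups was compared with limma over all 22206 probe sets, with a Bonferroni-adjusted p below 0.05 as the threshold of the study's design; Benjamini-Hochberg adjusted p-values over the same probe sets are given as a second, less strict measure. Between EpiSC and aCF, 1 of the 8 members passed the Bonferroni threshold, lower in EpiSC, and 0.666% of all probe sets did (0.401% higher and 0.266% lower). Between aCF and CF, 1 of 8 passed, higher in aCF, with 1.53% of all probe sets (1.21% higher and 0.32% lower). Between EpiSC and CF, 1 of 8 passed, lower in EpiSC, with 2.91% of all probe sets (1.97% higher and 0.941% lower). With the Benjamini-Hochberg adjustment the counts were 6 of 8 between EpiSC and aCF (9.61% of all probe sets), 4 of 8 between aCF and CF (18.1%) and 5 of 8 between EpiSC and CF (32.2%). Each group's arrays enter 2 of the 3 comparisons, so the comparisons are not independent.

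Fmod, a collagen-binding keratan sulfate proteoglycan that steers fibril assembly and collagen crosslinking, was the member with the largest differences. Its values were -0.54, -0.68, -0.23, 0.44 and -0.72 in EpiSC, 3.04, 2.72, 3.08, 2.56 and 2.58 in aCF, and 0.47, -0.38, -0.46, -0.58 and 0.00 in CF. The aCF arrays overlapped neither other group, and the EpiSC and CF arrays overlapped each other. Fmod fell by 3.14 on the log2 scale in EpiSC relative to aCF (SE 0.22, 95% CI -3.63 to -2.66, limma Bonferroni-adjusted p = 0.000888), which is 8.83-fold lower. It rose by 2.99 in aCF relative to CF (SE 0.20, 95% CI 2.55 to 3.42, limma Bonferroni-adjusted p = 0.000424), which is 7.92-fold higher. EpiSC and CF, at -0.35 ± 0.48 and -0.19 ± 0.43 (SD, n = 5 each), differed by -0.16 (95% CI -0.73 to 0.41, limma Benjamini-Hochberg adjusted p = 0.684). That interval leaves room for a difference of either sign, and the sign of the difference turned when the arrays were quantile-normalized again (0.03). Without aCF4 and aCF5 the differences were -3.29 for EpiSC against aCF and 3.14 for aCF against CF, and both stayed past the threshold (limma Bonferroni-adjusted p = 0.0274 and 0.0102).

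Bgn, a collagen-binding chondroitin or dermatan sulfate proteoglycan that also signals through Toll-like receptors, was likewise highest in aCF but over a much smaller span. Its values were -0.21, -0.15, -0.15, -0.09 and -0.08 in EpiSC, 0.22, 0.25, 0.40, 0.14 and 0.32 in aCF, and 0.00, 0.04, -0.12, -0.14 and 0.04 in CF. The aCF arrays lay above all EpiSC and all CF arrays, and EpiSC and CF overlapped. Bgn did not pass the Bonferroni threshold in any comparison. The difference was -0.40 for EpiSC against aCF (95% CI -0.54 to -0.26, limma Benjamini-Hochberg adjusted p = 0.0032) and 0.30 for aCF against CF (95% CI 0.16 to 0.45, limma Benjamini-Hochberg adjusted p = 0.0101). Between EpiSC and CF it was -0.10 (95% CI -0.23 to 0.03).

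Podn, a collagen-binding member known as an inhibitor of smooth muscle cell growth, was highest in CF and lowest in EpiSC. Its values were -0.63, -1.01, -0.70, -0.86 and -0.34 in EpiSC, 0.14, 0.00, 0.32, -0.61 and -0.15 in aCF, and 0.77, 0.80, 0.80, 0.84 and 0.89 in CF. The CF arrays lay within a narrow span above both infarct groups, and the lowest aCF array, aCF4, overlapped EpiSC. Podn fell by 1.53 on the log2 scale in EpiSC relative to CF (SE 0.11, 95% CI -1.77 to -1.28, limma Bonferroni-adjusted p = 0.00119), which is 2.88-fold lower. The difference between aCF and CF was -0.88 (95% CI -1.20 to -0.56, limma Benjamini-Hochberg adjusted p = 0.00211), and that between EpiSC and aCF was -0.65 (95% CI -1.04 to -0.25, limma Benjamini-Hochberg adjusted p = 0.0463), neither of them past the Bonferroni threshold.

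Prelp, which binds collagen and heparan sulfate and is thought to tie basement membranes to the underlying matrix, followed the same order of groups as Podn. Its values were -0.78, -0.85, -0.88, -1.02 and -0.25 in EpiSC, 0.00, 0.06, 0.17, -0.23 and -0.37 in aCF, and 0.48, 0.40, 0.41, 0.34 and 0.49 in CF. The CF arrays overlapped neither other group, and EpiSC5 lay within the span of aCF. The difference between EpiSC and CF was -1.18 (SE 0.13, 95% CI -1.46 to -0.90), and it missed the threshold narrowly (limma Bonferroni-adjusted p = 0.0546, Benjamini-Hochberg adjusted p = 8.26e-05). Without EpiSC5 it was -1.31 and passed (limma Bonferroni-adjusted p = 0.000155). The difference was -0.50 for aCF against CF (95% CI -0.72 to -0.28, limma Benjamini-Hochberg adjusted p = 0.00588) and -0.68 for EpiSC against aCF (95% CI -1.02 to -0.34, limma Benjamini-Hochberg adjusted p = 0.0196). Prelp and Fmod lie next to each other on chromosome 1 in the RefSeq order, beside opticin (Optc), yet Fmod was highest in aCF and Prelp in CF.

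**Figure D2:**
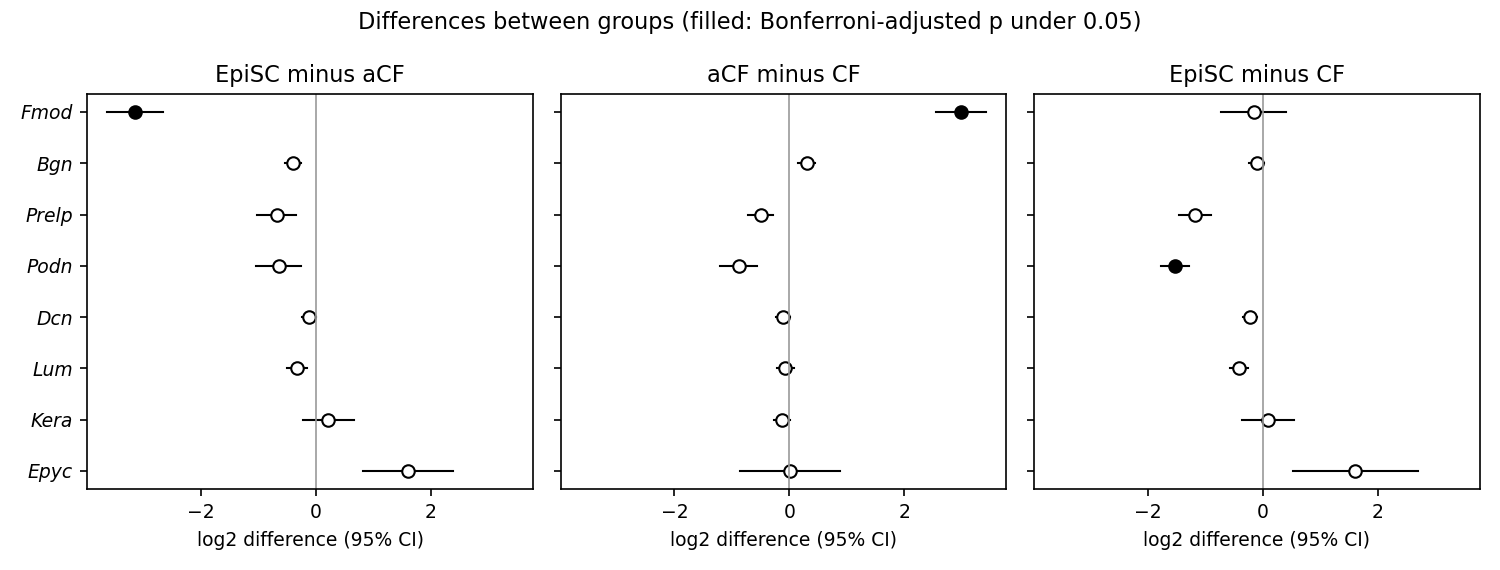
Log2 difference of each member for EpiSC minus aCF, aCF minus CF and EpiSC minus CF, with 95% confidence intervals from limma; filled points have a Bonferroni-adjusted p under 0.05 over 22206 probe sets. The filled points are Fmod for EpiSC minus aCF and for aCF minus CF, and Podn for EpiSC minus CF.

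Dcn, Lum, Kera and Epyc form 1 cluster of neighbouring genes on chromosome 10, and none of them passed the Bonferroni threshold. Dcn, which binds collagen and TGF-beta and restrains growth factor receptors such as Met, spanned little. Its values were -0.13, -0.14, -0.07, -0.07 and -0.06 in EpiSC, 0.04, 0.09, 0.07, -0.04 and -0.05 in aCF, and 0.18, 0.14, 0.13, 0.00 and 0.21 in CF. EpiSC lay below both other groups without overlap, and aCF and CF overlapped. The largest difference, EpiSC against CF, was -0.23 (95% CI -0.35 to -0.10, limma Benjamini-Hochberg adjusted p = 0.011), with -0.12 for EpiSC against aCF and -0.11 for aCF against CF (limma Benjamini-Hochberg adjusted p = 0.23 for both).

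Lum, a keratan sulfate proteoglycan that spaces collagen fibrils, was also lowest in EpiSC. Its values were -0.49, -0.24, -0.35, -0.35 and -0.17 in EpiSC, 0.13, 0.03, 0.10, -0.10 and -0.08 in aCF, and 0.18, 0.04, 0.08, 0.00 and 0.13 in CF. All EpiSC arrays lay below all aCF and CF arrays, which overlapped each other. The difference was -0.34 for EpiSC against aCF (95% CI -0.51 to -0.16, limma Benjamini-Hochberg adjusted p = 0.0232) and -0.41 for EpiSC against CF (95% CI -0.56 to -0.25, limma Benjamini-Hochberg adjusted p = 0.00162). For aCF against CF it was -0.07 (95% CI -0.21 to 0.07).

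Epyc, known from cartilage, ran the other way. Its values were 0.42, 1.02, 0.22, 1.33 and 2.26 in EpiSC, 0.00, -0.81, -0.56, -0.95 and -0.44 in aCF, and 0.31, 0.50, -1.58, -0.75 and -1.28 in CF. EpiSC lay above aCF without overlap, whereas CF1 and CF2 reached into the EpiSC span. The difference was 1.60 for EpiSC against aCF (95% CI 0.81 to 2.39, limma Benjamini-Hochberg adjusted p = 0.0185) and 1.61 for EpiSC against CF (95% CI 0.53 to 2.70, limma Benjamini-Hochberg adjusted p = 0.0289). Between aCF and CF it was 0.01 with an interval of -0.86 to 0.88, so a difference of either sign is not excluded by these arrays. The spread within groups, with SDs of 0.81 in EpiSC, 0.37 in aCF and 0.93 in CF, was the widest of the 8 members in each group.

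Kera, known from the cornea, showed no difference past either adjustment. Its values were -0.09, 0.02, 0.01, -0.12 and 1.03 in EpiSC, -0.12, 0.02, -0.03, 0.00 and -0.11 in aCF, and 0.24, -0.04, 0.08, 0.00 and 0.10 in CF. Apart from EpiSC5, every array lay between -0.12 and 0.24. The difference was 0.22 for EpiSC against aCF (95% CI -0.22 to 0.66), -0.12 for aCF against CF (95% CI -0.27 to 0.02) and 0.09 for EpiSC against CF (95% CI -0.35 to 0.54). Without EpiSC5 the last was -0.12.

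Over the 8 members, the groups did not overlap for 5 in EpiSC against aCF, of which 1 was higher and 4 were lower in EpiSC, while 9.91% of all probe sets had groups that did not overlap (5.18% higher and 4.73% lower). The count for aCF against CF was 4, of which 2 were higher and 2 lower in aCF, with 14.7% of all probe sets (7.88% higher and 6.84% lower). For EpiSC against CF it was 4, all lower in EpiSC, with 23.4% of all probe sets (11.6% higher and 11.8% lower). The median difference of the members was -0.37 for EpiSC against aCF (0.01 over all probe sets), -0.09 for aCF against CF (-0.02 over all probe sets) and -0.19 for EpiSC against CF (-0.01 over all probe sets). Counts of 8 genes are small, and members of 1 chromosome cluster or neighbourhood are not independent of each other.

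Over the 15 arrays, which share the 3 groups, Fmod and Bgn had a Pearson r of 0.92, and Prelp and Podn 0.95. Prelp, Podn, Dcn and Lum had values between 0.83 and 0.95 with each other. Fmod had an r of 0.11 with Prelp and -0.03 with Podn. Computed on the deviations from the group means, r was 0.42 for Fmod and Bgn, and 0.73 for Prelp and Podn. On that scale each of these genes but Podn was closer to another member. Fmod and Bgn were closest to Dcn (0.57 and 0.59) and Prelp to Kera (0.79). Kera was 1.03 in EpiSC5 and between -0.12 and 0.24 in every other array. Prelp was also highest among the EpiSC arrays in EpiSC5 (-0.25), and r without that array was not computed. All arrays and members share the same normalization, so these values are descriptions.

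**Figure D3:**
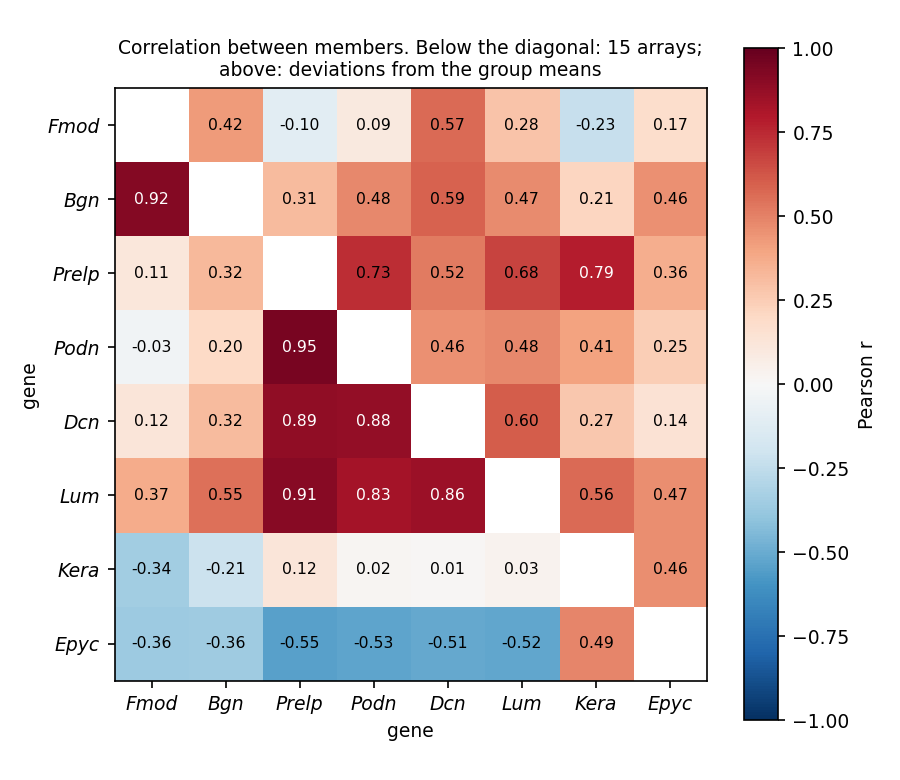
Pearson r between pairs of members, below the diagonal over the 15 arrays and above it on deviations from the group means. Below the diagonal, Fmod with Bgn (0.92) and the pairs among Prelp, Podn, Dcn and Lum (0.83 to 0.95) are the darkest cells.

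Among all 13513 named genes, the 3 whose values over the 15 arrays were most like Fmod were Garre1 (r = 0.96), Grb14 (0.96) and Mpzl1 (0.96). For Bgn they were Padi4 (0.95), Mest (0.93) and Fmod itself (0.92). For Podn they were Cox8b (0.98), Sik3 (0.98) and Plpp3 (0.97), and for Prelp Cd302 (0.98), Islr (0.98) and Fxyd1 (0.98). Dpt, the gene of the collagen-binding protein dermatopontin, was among the 3 most like Lum (0.96), with Antxr1 (0.96) and Gng11 (0.95). Dcn was most like Pcm1 (0.97), Nfib (0.95) and Hipk1 (0.94). For Epyc the values were lower, with Orai2 (0.88), Gdpd5 (0.85) and Nos2 (0.85), and for Kera they were Gabrg3 (0.94), Nfkbid (0.88) and Vmn1r127 (0.87). The 15 arrays share the 3 groups, so a gene with the same order of groups has a high r whatever else it does. Kera showed no group difference past either adjustment, and only EpiSC5 (1.03) stood apart from its other arrays (-0.12 to 0.24). The part of that array in its r values was not tested.

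Other members of the wider leucine-rich family with a value were Optc, Nyx, Podnl1 and Chad, and 0 of these 4 passed the Bonferroni threshold in any of the 3 limma comparisons. Podnl1, the gene of a podocan-like protein, had a difference of 1.11 for aCF against CF (95% CI 0.31 to 1.92, limma Benjamini-Hochberg adjusted p = 0.0502). Optc had a difference of -0.28 for EpiSC against CF (limma Benjamini-Hochberg adjusted p = 0.0295), the only one of the 4 genes in the 3 comparisons with a Benjamini-Hochberg adjusted p below 0.05. Aspn, Ogn, Omd, Ecm2, Tsku and Chadl were not analysed here.

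The collagens that these proteins bind were counted by the same threshold. In aCF relative to CF, 5 of the 10 collagen genes with a value rose and 0 fell, with a median difference of 0.87. Of all probe sets, 1.21% were higher and 0.32% lower by that threshold. Col11a1, a minor fibrillar collagen of cartilage, rose by 2.54 (SE 0.16, limma Bonferroni-adjusted p = 0.000222), and the type I chains Col1a1 and Col1a2 rose by 1.18 (SE 0.06) and 1.27 (SE 0.06). Col5a2, which helps to start fibrils, rose by 1.48 (SE 0.08). Between EpiSC and CF, 1.97% of all probe sets were higher and 0.941% lower by that threshold. Of the 10 collagens, 2 rose and 0 fell, with a median of 0.45. They were Col1a1 at 0.94 and Col1a2 at 0.91. With a limma Benjamini-Hochberg adjusted p below 0.05, 5 were higher and 3 lower in EpiSC than in CF (32.2% of all probe sets in either direction), and the 3 were the type VI chains Col6a1 (-0.44), Col6a2 (-0.45) and Col6a3 (-0.52), with no overlap between EpiSC and CF for any of them. For EpiSC against aCF, 0 of 10 passed the Bonferroni threshold in limma, with a median of -0.43, and 8 had a Benjamini-Hochberg adjusted p below 0.05, 0 higher and 8 lower in EpiSC (9.61% of all probe sets in either direction). In aCF relative to CF that count was 6 higher and 0 lower (18.1% of all probe sets in either direction).

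Genes of tendon and cartilage matrix were counted beside Fmod, which is abundant in those tissues. Of the 11 with a value, 3 rose in aCF relative to CF and 0 fell, with a median of 0.39. Of all probe sets, 1.53% passed that threshold for aCF against CF. Comp, a pentameric cartilage protein, rose by 1.64 (SE 0.16, limma Bonferroni-adjusted p = 0.0244). Cilp, a cartilage intermediate layer protein also made by heart fibroblasts, rose by 1.35 (SE 0.09, limma Bonferroni-adjusted p = 0.000381), and Thbs1, which binds and activates TGF-beta, rose by 1.10 (SE 0.12). For EpiSC against aCF and EpiSC against CF, 0 of 11 passed the Bonferroni threshold in limma, with medians of -0.40 and 0.07. In each, 4 had a Benjamini-Hochberg adjusted p below 0.05. Against aCF, 0 were higher and 4 lower in EpiSC (9.61% of all probe sets in either direction). Against CF, 2 were higher and 2 lower (32.2% of all probe sets). Among the 4 lower than in aCF, Cilp differed by -2.65 and narrowly missed the threshold (limma Bonferroni-adjusted p = 0.055). Comp differed by -1.73 (limma Benjamini-Hochberg adjusted p = 0.00251). The EpiSC and aCF arrays overlapped for neither gene. Among the 10 large proteoglycans and link proteins with a value, 1 rose for aCF against CF: Acan, the aggregating proteoglycan of cartilage, by 1.64 (SE 0.14, limma Bonferroni-adjusted p = 0.00581). It had an EpiSC against aCF difference of -1.60 that did not pass (limma Bonferroni-adjusted p = 0.836, Benjamini-Hochberg adjusted p = 0.00198). The EpiSC and aCF arrays did not overlap for Acan. The medians of that list were 0.18 for EpiSC against aCF, -0.07 for aCF against CF and 0.07 for EpiSC against CF. In the comparisons of EpiSC 0 of 10 passed. With a Benjamini-Hochberg adjusted p below 0.05 there were 2 against aCF (9.61% of all probe sets) and 3 against CF (32.2%).

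**Figure D4:**
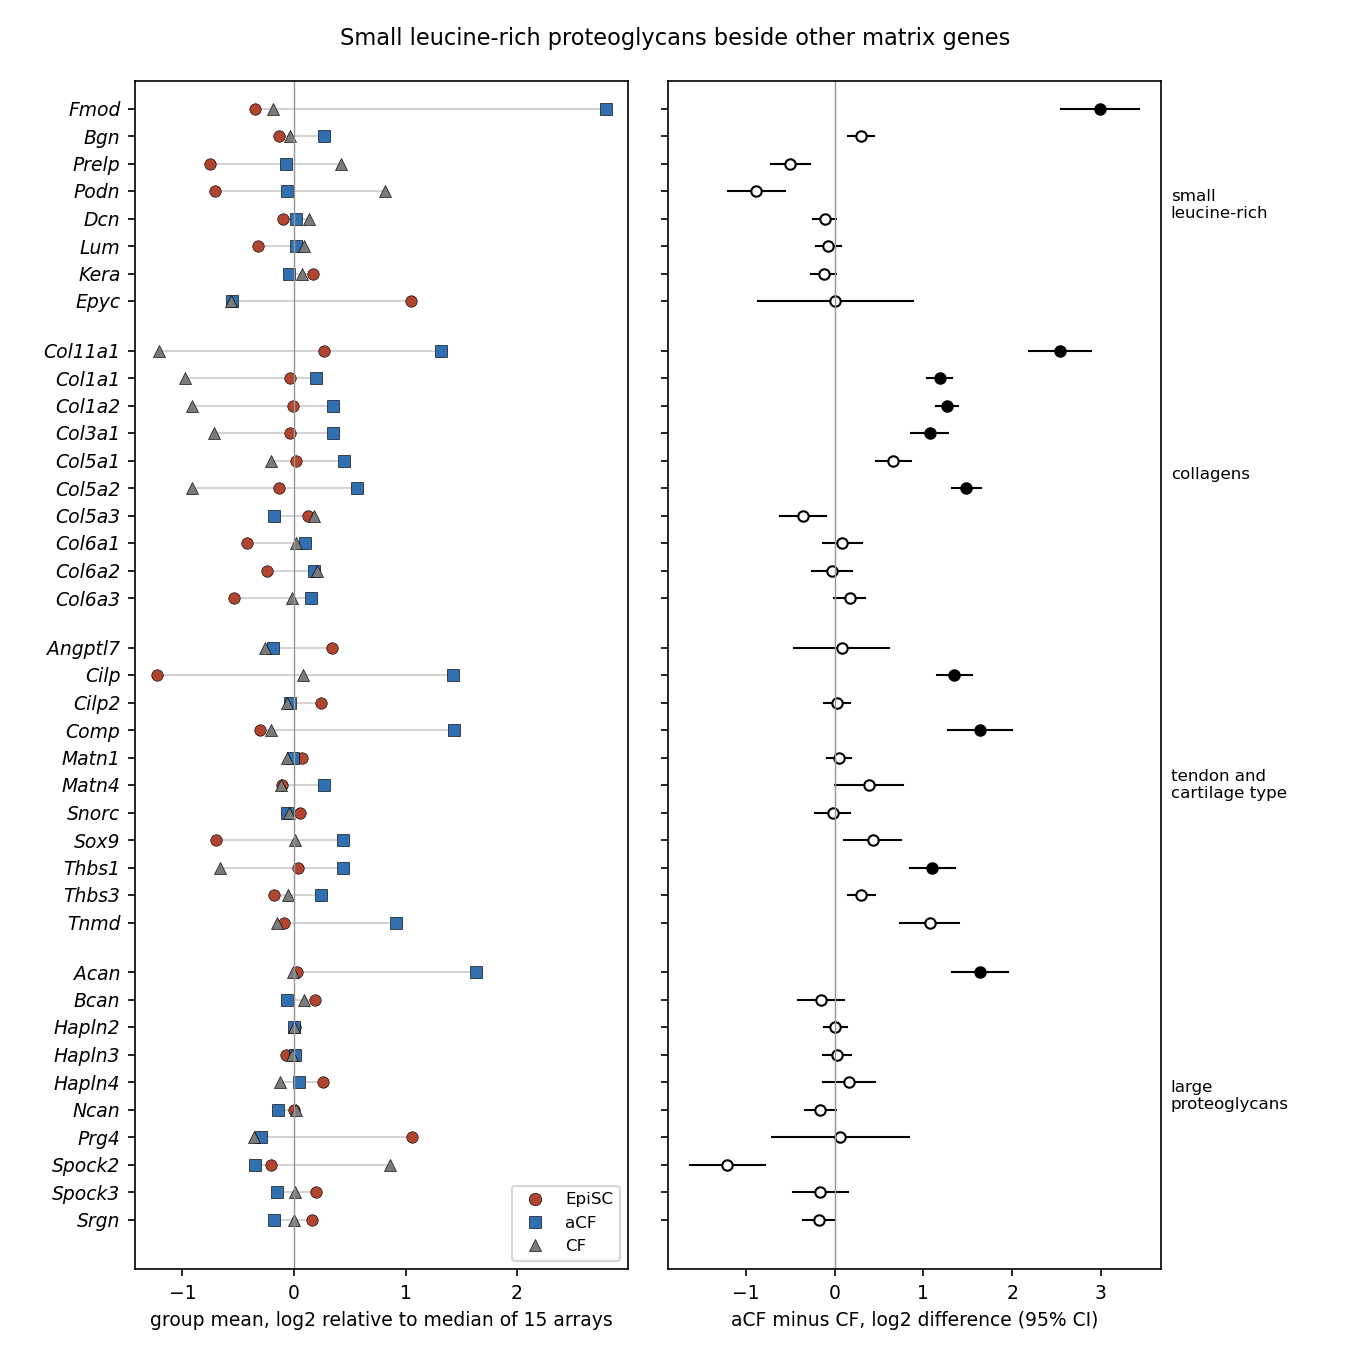
Left, group means of the members and of 3 lists of other matrix genes in EpiSC, aCF and CF, as log2 relative to the median of 15 arrays; right, the difference aCF minus CF with its 95% confidence interval, filled where the Bonferroni-adjusted p was under 0.05. Fmod (2.99) and Col11a1 (2.54) are the largest differences shown, and both are filled. The other filled points are the collagens Col1a1, Col1a2, Col3a1 and Col5a2, and Acan, Comp, Cilp and Thbs1.

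Further lists held the enzymes that crosslink collagen, that build the proteoglycans' sugar chains and that cut their cores. Of 4 crosslinking enzymes with a value, Loxl3, a lysyl oxidase, rose by 0.88 in aCF relative to CF (SE 0.07, limma Bonferroni-adjusted p = 0.00417). It was the 1 of 4 past the threshold there, with 1.53% of all probe sets, and 4 of 4 were higher in aCF with a Benjamini-Hochberg adjusted p below 0.05, with 18.1% of all probe sets in either direction. Plod2, a lysyl hydroxylase, rose by 1.10 in EpiSC relative to CF (SE 0.11, limma Bonferroni-adjusted p = 0.0226). In that comparison 2 of the enzymes were higher and 1 lower with a Benjamini-Hochberg adjusted p below 0.05, with 32.2% of all probe sets. For EpiSC against aCF 0 of 4 passed, and 3 had a Benjamini-Hochberg adjusted p below 0.05 in limma (9.61% of all probe sets). The medians were -0.445 there, 0.61 for aCF against CF and 0.13 for EpiSC against CF. Of 19 enzymes of the linkage region and of chondroitin or dermatan sulfate, Chpf, which helps to lengthen chondroitin chains, fell by 1.27 in EpiSC relative to aCF (SE 0.07, limma Bonferroni-adjusted p = 0.000148). Ugdh, which makes the UDP-glucuronic acid for these chains, rose by 0.84 in the same comparison (SE 0.07, limma Bonferroni-adjusted p = 0.0057). Chst15, a chondroitin sulfotransferase, rose by 2.31 in EpiSC relative to CF (SE 0.245, limma Bonferroni-adjusted p = 0.0487). Of all probe sets, 0.666% passed the Bonferroni threshold for EpiSC against aCF and 2.91% for EpiSC against CF. For aCF against CF 0 of the 19 passed in limma, and 7 had a Benjamini-Hochberg adjusted p below 0.05 (18.1% of all probe sets). By that adjustment 4 were higher and 5 lower in EpiSC than in aCF (9.61% of all probe sets). Against CF 3 were higher and 6 lower in EpiSC (32.2%). The medians of the list were -0.17 for EpiSC against aCF, 0.11 for aCF against CF and -0.02 for EpiSC against CF.

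Of the 8 keratan sulfate enzymes with a value, 0 passed the Bonferroni threshold in each of the 3 limma comparisons. With a Benjamini-Hochberg adjusted p below 0.05 there were 3 for EpiSC against aCF, 3 for aCF against CF and 2 for EpiSC against CF, and the medians were 0.16, -0.09 and 0.12. The shares of all probe sets in these comparisons were 9.61%, 18.1% and 32.2%, in either direction. Of 12 genes listed as proteases acting on the family, 1 fell past the Bonferroni threshold in aCF relative to CF (1.53% of all probe sets). It was Pcolce2 (by 0.53, SE 0.06, limma Bonferroni-adjusted p = 0.0397), an enhancer of procollagen processing and not itself a protease. With a limma Benjamini-Hochberg adjusted p below 0.05, 3 of the 12 were higher and 4 lower in aCF than in CF (18.1% of all probe sets). In the comparisons of EpiSC with aCF and with CF 0 of 12 passed in limma. With a Benjamini-Hochberg adjusted p below 0.05 there were 5 against aCF (9.61% of all probe sets) and 8 against CF (32.2%). Against aCF 3 were higher and 2 lower in EpiSC, and against CF 5 were higher and 3 lower. The medians of the list were 0.17 for EpiSC against aCF, 0.12 for aCF against CF and 0.10 for EpiSC against CF.

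Receptors and ligands known to bind family members were measured for 19 genes. For EpiSC against aCF 2 rose and 0 fell past the Bonferroni threshold (0.666% of all probe sets in either direction). With a limma Benjamini-Hochberg adjusted p below 0.05, however, there were 2 higher and 9 lower in EpiSC (9.61% of all probe sets in either direction). Cd44, a hyaluronan receptor, rose by 2.43 (SE 0.175, limma Bonferroni-adjusted p = 0.00127), and Met, the hepatocyte growth factor receptor that decorin binds, rose by 2.20 (SE 0.19, limma Bonferroni-adjusted p = 0.00791). For EpiSC against CF 2 rose and 1 fell (2.91% of all probe sets). Cd44 rose by 3.34 (SE 0.145) and Met by 2.26 (SE 0.20). Igf1r, the type 1 insulin-like growth factor receptor that decorin also binds, fell by 0.98 (SE 0.10, limma Bonferroni-adjusted p = 0.038). In aCF relative to CF 1 of 19 rose (1.53% of all probe sets). It was Ccn2, the connective tissue growth factor, by 1.14 (SE 0.12, limma Bonferroni-adjusted p = 0.0484). The Toll-like receptors of biglycan, Tlr2 and Tlr4, differed by 0.21 and 0.10 for EpiSC against aCF, with a limma Benjamini-Hochberg adjusted p of 0.326 and 0.814. With a Benjamini-Hochberg adjusted p below 0.05, 6 were higher and 4 lower for aCF against CF (18.1% of all probe sets). For EpiSC against CF 2 were higher and 6 lower (32.2% of all probe sets). The medians of the list were -0.19 for EpiSC against aCF, 0.06 for aCF against CF and -0.23 for EpiSC against CF.

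Markers of other cell types also moved with the groups. The mean of the 11 epicardial and mesothelial markers with a value ranged from 1.225 to 1.85 in EpiSC, from -0.61 to 0.21 in aCF and from -0.91 to -0.24 in CF. The 12 mural markers had a per-array mean of -0.94 to -0.56 in EpiSC, 0.285 to 0.58 in aCF and -0.63 to -0.035 in CF. This mean was highest in aCF, as Fmod and Bgn were, but the mural markers did not all move alike. For aCF against CF, 6 were higher and 1 lower with a limma Benjamini-Hochberg adjusted p below 0.05 (18.1% of all probe sets). The 2 past the Bonferroni threshold (1.53% of all probe sets) were Cnn1 (2.98) and Tagln (2.36). Heyl had a lower mean in aCF (-0.014) than in CF (0.316). The mean of the 12 endothelial markers ranged from -0.75 to -0.57 in EpiSC, from -0.175 to 0.36 in aCF and from 0.19 to 0.52 in CF, which is the order of groups of Prelp and Podn. The mean of the 13 heart muscle markers ranged from -0.75 to -0.37 in EpiSC, from -0.60 to 0.34 in aCF and from 0.23 to 0.41 in CF. The mean of the 13 macrophage markers ranged from -0.12 to -0.03 in EpiSC, from 0.12 to 0.38 in aCF and from -0.255 to -0.065 in CF. The part of these cell types in the members' differences was not tested.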

How the data were processed

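RNA of 15 mouse heart cell samples was measured on Affymetrix arrays. The deposited values are log2 expression centred by the authors on each probe set's median over all arrays, per the series design text, which names GeneSpring GX, quantile normalization and an exon-level RMA summary; the base of the logarithm is inferred from that method and from the range of -4.77 to 5.52. The design text's filter on raw signal could not be applied to centred values, so all 22206 rows were tested. Array number limits the precision. The identifiers were displaced by 6900 rows (6903 on chromosomes 10 and 11), which paired 15303 of them, 13538 with a symbol, and left 6903 without a value; genes among those were not analysed here. The platform annotation gave 19572 probe sets 1 symbol, 0 several and 2634 none.

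The limma package (version 3.58.1, under R 4.3.3) gave 2-sided moderated tests with lmFit and eBayes on the 10 arrays of each pair of groups, with Bonferroni adjustment over all rows and a threshold of 0.05, as the design text gives for EpiSC against aCF and aCF against CF. EpiSC against CF was added. The fit was tested on simulated data. Replicates are biological per the labels. No 2 arrays shared over 2.45% of their values. Alternatives were another adjustment, paired rows only, 1 fit of 3 groups, quantile normalization again, a trended robust prior, replicate number as a block, each array left out, aCF4 and aCF5 left out, and other row pairings.

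The text names all 8 members, up to 4 genes per list and comparison with the largest difference among those past the threshold, and the 3 genes most like each member. Tlr2, Tlr4, Podnl1 and Optc were named after their values were seen. The members and gene lists were chosen with earlier results of these data known.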

Additional observations from a re-analysis of the deposited data

Results flagged for a closer look

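Kera in EpiSC5, at 1.03, was far from the other EpiSC arrays, which lay between -0.12 and 0.02. Its gap to the nearest array was large relative to the range of the group by Dixon's criterion. Such a gap appears by chance in about 1 in 20 groups, and 24 groups (8 members in 3 groups) were examined. EpiSC5 was also the highest EpiSC array for Prelp (-0.25), Podn (-0.34), Epyc (2.26), Lum (-0.17), Dcn (-0.06) and Bgn (-0.08).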

How the results depend on the processing

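Fmod stayed past the threshold, in limma, in 10 of 10 omissions of 1 array for EpiSC against aCF (-3.34 to -3.05, Bonferroni-adjusted p = 4.67e-05 to 0.00697) and in 10 of 10 for aCF against CF (2.89 to 3.15, adjusted p = 7.15e-05 to 0.00351), and Podn in 10 of 10 for EpiSC against CF (-1.62 to -1.45, adjusted p = 0.000152 to 0.0105). With replicate number as a block the Fmod call was lost for EpiSC against aCF (limma Bonferroni-adjusted p = 0.0983) and the Podn call for EpiSC against CF (adjusted p = 0.0681), Fmod was kept for aCF against CF (adjusted p = 0.0106), and the members called were 0, 1 and 0; the differences themselves were the same (-3.14, -1.53 and 2.99), and the block leaves fewer degrees of freedom. Arrays with the same number did not deviate together (correlations of -0.05 to 0.17 between groups, the highest for the own number in 3 of 15), so the numbers were not treated as pairs. Of 448 recomputed member differences, 397 kept direction and side of the threshold. Members called with Benjamini-Hochberg adjustment numbered 6 for EpiSC against aCF, 4 for aCF against CF and 5 for EpiSC against CF. Prelp joined Podn for EpiSC against CF, making 2, with paired rows only (adjusted p = 0.0377), in 1 fit of 3 groups (adjusted p = 0.00583), after quantile normalization (-0.91, adjusted p = 0.0187) and without EpiSC5 (1 to 2 members over the omissions).

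Probe sets past the threshold numbered 148 for EpiSC against aCF, with 2135 by Benjamini-Hochberg adjustment, 369 in 1 fit of 3 groups, 97 with a trended robust prior, 41 with the block, 73 to 143 over single omissions and 50 without aCF4 and aCF5. For aCF against CF 340 became 4023, 212 with the trended prior, 94 with the block, 197 to 272 over omissions and 144 without aCF4 and aCF5. For EpiSC against CF 647 became 7157, 1060 in 1 fit of 3 groups, 166 with the block and 369 to 557 over omissions.

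All names depend on the pairing of rows. In the deposited order 0 members passed in each comparison, and the values turned sign for Prelp (0.13), Bgn (0.004), Dcn (0.10) and Podn (0.052) in EpiSC against aCF, for Fmod (-0.20), Dcn (0.046) and Epyc (-0.076) in aCF against CF, and for Prelp (0.076), Bgn (0.036), Dcn (0.15), Kera (-0.43) and Epyc (-0.006) in EpiSC against CF. Without the extra 3 rows of chromosomes 10 and 11, Dcn was 0.23, 0.21 and 0.44, Kera -0.062, 0.06 and -0.002, Epyc -0.12, -0.11 and -0.23, and Lum -0.12, -0.71 and -0.83 in EpiSC against aCF, aCF against CF and EpiSC against CF. These are values of other rows, by construction. Small differences also turned: Epyc in aCF against CF (-0.0771 after quantile normalization, -0.25 to 0.27 over omissions), Lum in aCF against CF without aCF4 and aCF5 (0.00067), Fmod in EpiSC against CF (0.0308 after quantile normalization, -0.353 to 0.009 over omissions) and Kera in EpiSC against CF (-0.12 to 0.17 over omissions). The cause was not tested.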

Other observations

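Beyond the matrix genes, the 14 fibroblast markers with a value did not move as 1 list. For aCF against CF 3 rose and 3 fell, with a median difference of -0.005: Col1a2, Col1a1 and Col3a1 rose by 1.27, 1.18 and 1.07, and Gsn, an actin-severing protein, fell by 1.13. For EpiSC against CF 3 rose and 1 fell, S100a4 by 1.22 upward and Lamc1, a laminin chain, by 0.71 downward. Of all probe sets, 1.53% passed for aCF against CF and 2.91% for EpiSC against CF. By limma with Benjamini-Hochberg adjustment, 5 fibroblast markers were higher and 7 lower in EpiSC than in CF (32.2% of all probe sets). Their median difference there was -0.20. For EpiSC against aCF 0 passed the Bonferroni threshold in limma, and 7 had a Benjamini-Hochberg adjusted p below 0.05. Of these, 1 was higher and 6 were lower in EpiSC (9.61% of all probe sets in either direction).

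Of the epicardial and mesothelial markers, 4 of 11 rose past the Bonferroni threshold in EpiSC relative to aCF (0.666% of all probe sets in either direction). In EpiSC relative to CF 5 of 11 rose (2.91% of all probe sets). In aCF relative to CF 0 of 11 passed in limma (1.53% of all probe sets). With a limma Benjamini-Hochberg adjusted p below 0.05, 2 were higher in aCF than in CF (18.1% of all probe sets in either direction). Dmkn rose by 3.64 in EpiSC relative to aCF and by 6.05 relative to CF. Of 12 mural markers, 1 rose and 3 fell in EpiSC relative to aCF (0.666% of all probe sets). Rgs5, a pericyte gene, had a log2 difference of -3.58 there, and Des, an intermediate filament gene, of 1.68. In aCF relative to CF 2 mural markers rose, Cnn1 by 2.98 and Tagln by 2.36 (1.53% of all probe sets). In EpiSC relative to CF 3 rose and 2 fell (2.91% of all probe sets). By limma with Benjamini-Hochberg adjustment, 1 mural marker was higher and 8 lower in EpiSC than in aCF. In aCF relative to CF 6 were higher and 1 lower. For EpiSC against CF 3 were higher and 8 lower, with a median of -1.01. The shares of all probe sets were 9.61%, 18.1% and 32.2%. Ptprb, an endothelial phosphatase, was the 1 of 12 endothelial markers past the Bonferroni threshold in EpiSC relative to aCF (-3.09, with 0.666% of all probe sets). Cdh5, the endothelial cadherin, was the 1 past it in EpiSC relative to CF (-2.88, with 2.91% of all probe sets). By limma with Benjamini-Hochberg adjustment, 5 endothelial markers were lower and 0 higher in EpiSC than in aCF (9.61% of all probe sets in either direction). Against CF, 9 were lower and 1 higher in EpiSC (32.2% of all probe sets in either direction). Past the Bonferroni threshold, 3 of 13 heart muscle markers fell in EpiSC relative to CF, among them Myl2 (-2.76, with 2.91% of all probe sets). By Benjamini-Hochberg adjustment 8 of these markers were lower and 0 higher (32.2% of all probe sets in either direction). Of 5 Schwann and nerve markers, Ncam1 rose in aCF (2.17) and EpiSC (2.09) relative to CF (1.53% and 2.91% of all probe sets). Of 13 macrophage markers, 0 passed the Bonferroni threshold in the 3 limma comparisons. With a limma Benjamini-Hochberg adjusted p below 0.05, 0 were higher and 5 lower in EpiSC than in aCF (9.61% of all probe sets). In aCF relative to CF 6 were higher and 0 lower (18.1% of all probe sets). In EpiSC relative to CF 1 was higher and 0 lower (32.2% of all probe sets).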
